A study of Mus musculus with 7 samples.

Results

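Thinly covered intron pieces are intron rows of the deposited count table that were chosen by their measured counts: each had a summed count from 7 to 99 over all 7 libraries. The rule took 100327 of 232768 intron rows (43.1%), in a table of 580839 rows. Another 25447 intron rows had a summed count over 99, 43282 were above 0 with a sum under 7, and 63712 were at 0 in every library. The table names each row by a transcript ID and an intron number, with no gene name, coordinate or sequence, so the members are described by counts, host transcript and number. The name "thin" fits these values, since the median member had 21 counts over the 7 libraries (quartiles 12 and 38.1) and 57.1% of all member values were 0.

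The libraries are of RAW264.7, a mouse macrophage line, and of the extracellular vesicles (EVs) it releases. The 2 whole-cell libraries are of cells expressing a non-silencing hairpin (shNS) and of Dis3l2 knockdown cells (shDis3l2). The 5 EV libraries are of both these lines and of 3 lines derived from shDis3l2 cells. These carried either an empty vector (Vector), a transgene for Dis3l2 that resists the hairpin (Dis3l2r), or the Dis3l2 D389N transgene, whose product lacks catalytic activity per the design text. All cultures had 1 µg/mL doxycycline, and each of the 7 groups is 1 library. Vector, Dis3l2r and D389N therefore all carry the hairpin, and no value of knockdown, of transgene level or of macrophage markers could be read, because 0 of 48226 intron-bearing transcript IDs were matched to a gene name. EVs came from the pooled medium of several flasks, were collected from sucrose gradient fractions and were digested with micrococcal nuclease. Depletion of rRNA is stated for the whole-cell RNA alone.

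As background, introns are cut from primary transcripts by the spliceosome in the nucleus as lariats, which are debranched and degraded there. Some introns stay in the RNA, some give rise to stable small RNAs, and unspliced transcripts carry all of theirs. Dis3l2 is an exoribonuclease of the cytoplasm that degrades RNA carrying an added uridine tail. EVs are membrane-bound particles that carry RNA out of the cell. The sequencing used template switching by a group II intron reverse transcriptase, which copies short and structured RNA as well as long RNA.

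Depth was taken as the total on whole-RNA rows, meaning all rows that are not intron, exon or UTR pieces, and it ran from 13439408 (Dis3l2r EVs) to 37041326 (shNS cells). The shNS cell library stood apart in its transcript pieces: exon rows held 27300 counts there and 275220 to 555760 in the other 6 libraries. It is also the library with the fewest thin introns. Several values that take an end from it are also given without it. With 1 library per group, pairs of libraries have no test, and the intervals given cover counting error only.

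The number of thin introns above 0 differed widely between libraries. Of the 100327 members, 7780 (7.75%) were above 0 in shNS cells and 68504 (68.3%) in shDis3l2 cells. In EVs the number was 53928 (53.8%) for shNS, 40390 (40.3%) for shDis3l2 and 39494 (39.4%) for Vector. It was 60875 (60.7%) for Dis3l2r and 30069 (30.0%) for D389N. The cell libraries were thus at both ends of the order, with the 5 EV libraries between them. The shDis3l2 and Vector EVs, which both lack a Dis3l2 transgene, were neighbours in this order and differed by under 1 percentage point of the members.

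The number of rows above 0 depends on how many counts a library has, so each library was also thinned by calculation to the same 31081 member counts. At that number of counts, which equalises the members' counts and not the whole-RNA totals, the expected number of members above 0 was 7778 in shNS cells and 22314 in shDis3l2 cells. It was 21323, 19253, 18970, 21955 and 16689 in the shNS, shDis3l2, Vector, Dis3l2r and D389N EVs. The order of the 7 libraries was the one before thinning, and D389N EVs kept the fewest of the EV libraries. With the shNS cell library set aside and 355016 counts drawn from each of the others, the numbers were 64791 in shDis3l2 cells and 29764 (D389N) to 57894 (Dis3l2r) in EVs.

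**Figure D1:**
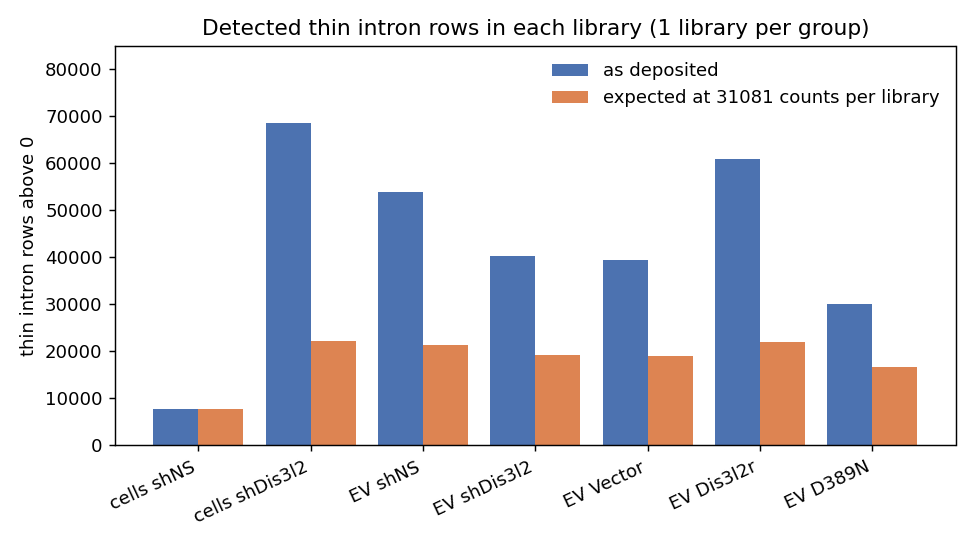
Number of thin intron rows above 0 (vertical axis, rows) in each of the 7 libraries, as deposited and when each library is thinned to the same number of member counts. The shNS cell library stood at 7780 rows as deposited, and the other 6 libraries stood between 30069 and 68504, a span that narrowed to between 16689 and 22314 at equal member counts.

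The summed level followed a different order from the number of rows. Members held 31085 counts in shNS cells, which is 0.0839% of the whole-RNA total (95% exact binomial interval 0.0830% to 0.0849%). In shDis3l2 cells they held 530090 counts, or 1.639% (1.635% to 1.643%). In EVs the share was 2.485% (2.479% to 2.491%) for shNS, 1.936% (1.930% to 1.943%) for shDis3l2 and 1.411% (1.406% to 1.415%) for Vector. It was 4.48% (4.47% to 4.49%) for Dis3l2r and 1.904% (1.898% to 1.910%) for D389N. Dis3l2r EVs had the highest share, and shDis3l2 cells, with the most rows above 0, ranked below every EV library except Vector. A share does not tell fewer vesicles or cells with these RNAs from less of them in each.

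The spread between the lowest and the highest library, 53.4-fold on this scale, depended on what the counts were divided by. It was 15.1-fold as a share of all intron rows and 2.07-fold as a ratio to the exon rows of the same library. The first 2 of these spans rest on the shNS cell library: without it they were 3.18-fold and 2.49-fold, while the exon ratio stayed at 2.07-fold. That ratio was 1.14 and 0.954 in shNS and shDis3l2 cells, and 1.51, 1.23, 1.21, 1.97 and 1.45 in the shNS, shDis3l2, Vector, Dis3l2r and D389N EVs. Relative to exon pieces the shNS cell library was thus no longer the lowest, and all 5 EV libraries were above both cell libraries.

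Over all intron counts of the table, members held 5.22%. They held 0.574% of intron counts in shNS cells and 8.05% in shDis3l2 cells, and from 3.48% (Vector) to 8.67% (Dis3l2r) in EVs. The densely covered introns, with sums over 99, held 14.5% (shNS cells) to 47.0% (Dis3l2r EVs) of whole-RNA totals, where members held 0.0839% to 4.48%. Without shNS cells the lowest values were 18.6% (shDis3l2 cells) and 1.41% (Vector EVs). Of the dense introns, 35.0% were above 0 in shNS cells and 90.1% to 96.3% in the other 6 libraries.

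**Figure D2:**
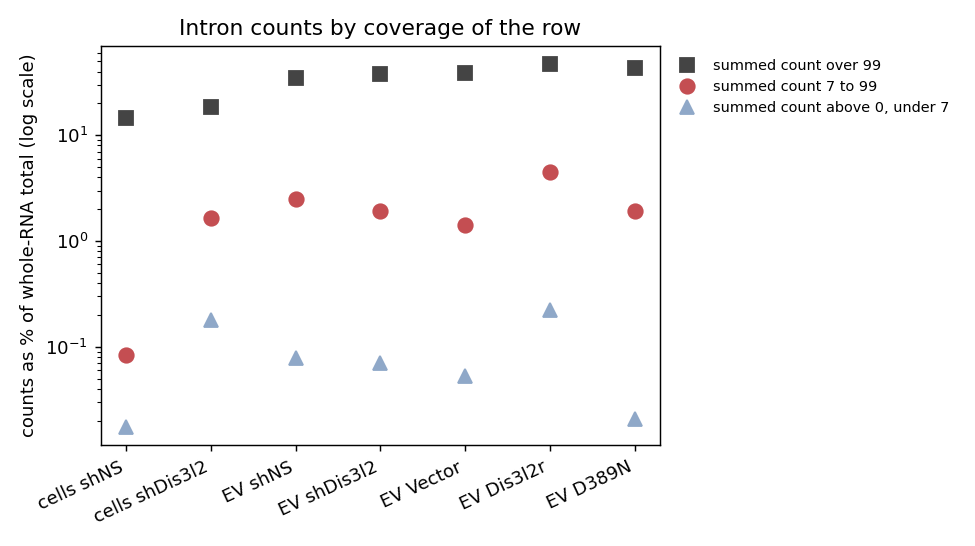
Counts on intron rows as a percentage of the whole-RNA total (logarithmic vertical axis) in each library, split by the row's summed count over the 7 libraries. Thin introns (circles) ran from 0.0839% in shNS cells to 4.48% in Dis3l2r EVs, and rows with sums over 99 (squares) lay above them in all 7 libraries.

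The first comparison set EVs against cells. Within shNS the summed share of thin introns was 29.6-fold higher in EVs (log2 ratio 4.89, interval 4.87 to 4.90), with 6.93 times as many rows above 0. Within shDis3l2 it was 1.18-fold higher (log2 0.24), with 0.590 times as many rows. The 2 lines thus gave the same direction of the share and opposite directions of the row number. As a share of intron counts the shDis3l2 pair turned to lower in EVs (log2 -0.73), and as a ratio to exon rows the 2 pairs stood at log2 0.41 and 0.36.

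Over all libraries the share was 2.44% ± 1.20 (SD, n = 5 EV libraries of different genotypes) against 0.0839% and 1.64% in the 2 cell libraries. The difference of 1.58 percentage points gave p = 0.190 in a two-sided exact permutation test over libraries, where 0.0952 is the smallest p that 5 against 2 allows. Vector EVs, at 1.41%, lay below shDis3l2 cells, so the groups overlapped. Without the shNS cell library the difference was 0.804 points. As a share of all rows and as a ratio to exon rows the groups did not overlap, with an exact permutation p of 0.0952 each. They overlapped for the share of intron rows (exact permutation p = 0.667), for rows above 0 (exact permutation p = 0.762) and for rows at equal member counts (exact permutation p = 0.571). Differences of compartment cannot be told apart from those of rRNA depletion and nuclease treatment, which the labels give for 1 compartment each.

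Row by row, a member was compared within a pair if it had at least 20 counts over both libraries, and it was past the rule of size at a ratio of at least 2 with a counting interval that excluded 1. In shNS EVs against shNS cells, 7987 members could be compared, of which 7792 (97.6%) were higher and 80 (1.0%) lower in EVs. Over all 38918 rows compared, 95.8% were higher and 2.62% lower, so the members were near the background. The cell library had 0 counts for 6861 of these 7987 members. They met the minimum count through the EV library alone, so they could not come out lower. The 97.6% is thus largely set by the choice of rows. Scaling by TMM, a trimmed mean that centres the bulk of the rows, moved all log2 ratios of this pair by -4.23 and gave 287 members higher (3.59%) and 392 lower (4.91%). All rows stood at 29.0% and 9.09% under TMM, so with that scaling the members' share higher was below the background.

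In shDis3l2 EVs against shDis3l2 cells, 12706 members could be compared. In EVs 4848 (38.2%) were higher and 3161 (24.9%) lower, against 45.3% and 20.7% of all rows compared. The direction of the majority changed with the scaling. With TMM 3621 members were higher (28.5%) and 4056 lower (31.9%), while all rows kept more higher than lower (37.5% and 29.4%). With intron totals 2944 members were higher (23.2%) and 4762 lower (37.5%), against 33.4% and 35.8% of all rows. Of the 12706 members, 1946 had 0 counts in EVs and 966 in cells. Those rows could not come out higher in the library without counts.

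An edgeR quasi-likelihood fit over the whole table compared the 5 EV with the 2 cell libraries, and took the Dis3l2 class as covariate. Class here is assigned from the genotype: shNS and Dis3l2r count as with active Dis3l2, the others as without. Of 79839 rows tested, 1.24% were called higher in EVs and 0.764% lower (Benjamini-Hochberg adjusted p threshold 0.05). The filter on low counts let through 31362 of 100327 members (31.3%), and edgeR called 0 of them in either direction. At an unadjusted p under 0.05 there were 649 (2.07% of members tested, against 12.85% of all rows tested). DESeq2 called 536 members higher (1.71%) and 2 lower (0.00638%), against 12.6% and 0.951% of all rows tested. Without shDis3l2 cells edgeR called 28 members higher (0.0523%, against 16.7% of all rows). Without shNS cells it called 9 lower (0.0153%, against 0.725%). In each of these fits the members were called less often than all rows tested. The rule keeps the members' sums low, while all rows tested include rows with far higher sums. Call rates at matched counts were not compared, so the lower rate is not read as a trait of the members.

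Single members show what lies behind these counts. The member with the smallest adjusted p toward cells was intron 3 of ENSMUST00000106998.7, with 55 and 40 counts in shNS and shDis3l2 cells and 0 in each of the 5 EV libraries. It was at least 46.4-fold lower in EVs, taking 3 counts over the 5 libraries as the limit of a 0, and its edgeR adjusted p was 0.177. Intron 0 of ENSMUST00000074945.7 had 16 and 43 counts in cells and 0 in all EV libraries (at least 28.8-fold lower, edgeR adjusted p = 0.240). Both rows were picked by their small p in this fit, and with 0 in EVs they passed the filter through cell libraries alone. The gap between cells and EVs is thus part of the choice.

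Toward EVs the smallest adjusted p belonged to intron 11 of ENSMUST00000006470.13. It had 0 counts in both cell libraries and 10, 17, 17, 36 and 14 in the shNS, shDis3l2, Vector, Dis3l2r and D389N EVs, which is at least 21.4-fold higher in EVs (edgeR adjusted p = 0.244). Intron 0 of ENSMUST00000020734.10 had 0 in both cell libraries and 8, 2, 17, 49 and 20 in EVs in the same order (at least 21.8-fold higher, edgeR adjusted p = 0.252). Its EV values spread from 2 to 49, and most of its counts came from Dis3l2r and D389N. Both of these rows were also picked by their small p, and passed the filter through EV libraries alone.

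As a share of whole-RNA totals, the knockdown comparison gave opposite directions in cells and EVs. In cells the summed share was 19.5-fold higher with shDis3l2 than with shNS (log2 4.29, interval 4.27 to 4.30) and 8.81 times as many members were above 0. In EVs the share was 1.28-fold lower with shDis3l2 (log2 -0.36, interval -0.37 to -0.35), with 0.749 times as many rows. The cell value rests on the shNS cell library and cannot be given without it. Exon pieces moved with it, at 23.3-fold higher in shDis3l2 cells, while UTR pieces stood at 1.05-fold and introns with sums over 99 at 1.28-fold. As a ratio to exon rows the cell difference became log2 -0.26, and the EV difference stayed at -0.30. Which part the few exon counts of the shNS cell library have in the cell difference was not tested.

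Among members compared row by row in cells, 4747 of 5008 (94.8%) were higher with shDis3l2 and 74 (1.48%) lower, against 88.7% and 2.65% of all rows compared. Of these 5008 members, 4316 had 0 counts in shNS cells and 19 had 0 in shDis3l2 cells. The 4316 met the minimum count through the shDis3l2 library alone, so they could not come out lower. The share higher is thus largely set by the choice of rows. In EVs 3495 of 15269 (22.9%) were higher with shDis3l2 and 6421 (42.1%) lower, against 20.8% and 31.3% of all rows. Among introns with sums over 99 in EVs, 13.6% were higher and 26.7% lower. Of the 15269 members compared in EVs, 3516 had 0 counts with shDis3l2 and 1296 with shNS. These also could not come out higher in the library where they had 0. For the cell pair, TMM moved all log2 ratios by -1.97 and gave 4436 members higher (88.6%) and 203 lower (4.05%). All rows compared in cells stood at 79.1% and 10.1% under TMM.

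In EVs, Dis3l2 re-expression was set against the empty vector. The summed share was 3.18-fold higher in Dis3l2r than in Vector EVs (log2 1.67, interval 1.66 to 1.67), with 1.54 times as many rows above 0. The fold was 1.20 for sums over 99, 3.18 for the members and 4.23 for introns with sums under 7, against 1.94 for exon pieces. These classes are cut on a sum that includes both libraries, so the rule can shape this order. In shNS EVs against shNS cells the same classes stood at 2.38, 29.6 and 4.55, which is another order. Of 15239 members compared, 8975 (58.9%) were higher in Dis3l2r and 1803 (11.8%) lower, against 54.0% and 11.1% of all rows. With TMM 6172 members were higher (40.5%) and 3456 lower (22.7%), against 30.1% and 26.2% of all rows. Of the 15239 members, 3287 had 0 counts in Vector EVs and 1031 in Dis3l2r EVs. Such rows met the minimum count through a single library and could not come out higher in the other.

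D389N EVs combined few members with many counts in each. Against Vector the summed share was 1.35-fold higher (log2 0.43, interval 0.43 to 0.44) while 0.761 times as many rows were above 0. Introns with sums under 7 went the other way, at 2.52-fold lower, and those over 99 stood at 1.11-fold. Of 12635 members compared, 6800 (53.8%) were higher in D389N and 2835 (22.4%) lower, against 40.6% and 20.8% of all rows compared. Among introns with sums over 99 the figures were 31.1% and 18.5%. Of the 12635 members, 3610 had 0 counts in Vector EVs and 1953 in D389N EVs. Those rows met the minimum count through a single library, so they could not come out higher in the library without counts. The Dis3l2r and D389N comparisons share the Vector library, so they are not independent of each other.

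The counts per detected row show this contrast. The median member above 0 had 11 counts in D389N EVs, 9 in shNS, 8 in Dis3l2r, and 7 in both shDis3l2 and Vector EVs. It had 5.99 in shDis3l2 cells and 3 in shNS cells. Rows with at least 10 counts made up 55.6% of the detected members in D389N EVs and 34.7% to 45.1% in the other EV libraries, against 26.3% in shDis3l2 cells and 7.21% in shNS cells. At the low end, 31.5% of detected members had a single count in shNS cells, against 11.3% in shDis3l2 cells and 6.11% to 9.13% in EVs.

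**Figure D3:**
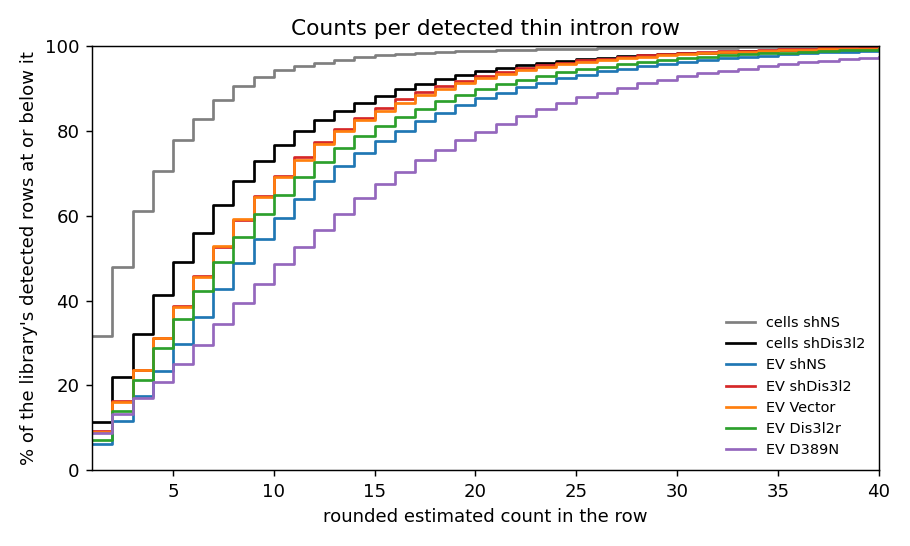
Cumulative percentage of each library's detected thin intron rows (vertical axis) by rounded estimated count (horizontal axis), 1 line per library. The shNS cell line rises first, with 31.5% of rows at 1 count, and the D389N EV line reaches its median last, at 11 counts per detected row.

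Grouped by assigned Dis3l2 class, the 3 EV libraries without active Dis3l2 had shares of 1.41% to 1.94% (mean 1.75% ± 0.29, SD, n = 3) and the 2 with it had 2.49% and 4.48%. The groups did not overlap, and the difference was -1.73 percentage points. The two-sided exact permutation test gave p = 0.2, the smallest that 3 against 2 allows, so the design cannot reach the threshold. Rows above 0, the number at equal member counts, the share of all rows, the share of intron rows and the ratio to exon rows also did not overlap in this direction (exact permutation p = 0.2 each). These measures come from the same 5 libraries and are not separate evidence. Without Dis3l2r the difference was -0.735 points.

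Row by row, edgeR on the same 5 libraries with TMM called 0.0% of 68328 rows higher and 0.0% lower in the libraries without active Dis3l2. The filter let through 23383 of 100327 members (23.3%), with 0 called and 1538 (6.58%) at an unadjusted p under 0.05, against 5.93% of all rows tested. DESeq2 called 3 members higher (0.0128% of members tested) and 0 lower, against 0.18% and 0.0849% of all rows tested. The member with the smallest p toward these libraries was an intron with 30, 31 and 36 counts in shDis3l2, Vector and D389N EVs and 0 in the other 4 libraries (edgeR adjusted p = 0.759). The row was picked by its p. With 0 in both EV libraries with active Dis3l2, it passed the filter through the other 3 EV libraries alone. The gap between the classes is thus part of the choice. Its 3 values were close to each other, but 1 library per genotype does not show their spread.

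Most members were seen in few libraries. Of the 100327, 15302 were above 0 in 1 library, 27061 in 2, 23803 in 3, 17131 in 4, 11179 in 5, 5169 in 6 and 682 in all 7. Detection in EVs and in at least 1 cell library was the common case, with 67720 rows (67.5%). EV-only rows numbered 29258 (29.2%) and cell-only rows 3349 (3.34%). Since there are 5 EV libraries and 2 cell libraries, these shares do not compare the compartments. Rows above 0 in all 5 EV libraries and in no cell library numbered 499 (0.497%), and rows in both cell libraries and no EV library 452 (0.451%). No share over all rows stands beside these counts or the EV-only and cell-only ones, so they are not read as a trait of the members.

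In many members 1 library held most of the counts. In 67702 rows (67.5%) a single library held at least 50% of the counts. Of rows with at least 20 counts, 2062 were above 0 in 1 library alone, and of those with at least 50 counts, 202. The largest of these had 98.8 counts in shDis3l2 cells and 0 in the other 6 libraries, and another had 96.0 in shNS cells and 0 elsewhere. At the other extreme, the member with the highest minimum had 7.05 counts in its lowest library, shDis3l2 cells, and 14.0 in its highest, shNS EVs. Rows above 0 in all 7 libraries numbered 682, where shNS cells had 7.75% of members above 0, and 5328 rows (5.31%) were above 0 in all 5 EV libraries. No share over other rows stands beside the counts of this paragraph. The rule keeps sums low, so they are not read as a trait of the members.

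In percentage points, the gain in detection from the lowest to the highest window of summed counts was smallest in the shNS cell library. From sums of 7 to under 10 to sums of 50 to 99, the percentage of rows above 0 went from 29.5% to 83.9% in shNS EVs and from 8.83% to 62.1% in D389N EVs. In shNS cells it was 6.28%, 6.11%, 7.74% and 12.4% over the 4 windows. The percentage of rows seen in 1 library alone went from 42.1% to 1.23%. The median share of a row's counts in its top library went from 87.5% to 40.8%. The rule uses the sum, so these are descriptions of the window.

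Values ran on without a step across both edges of the window. The 5391 rows with sums from 7 to under 8 were above 0 in 1.64 libraries on average, and the 5893 rows just below, from 6 to under 7, in 1.53. The 163 rows over 98 to 99 averaged 5.11 libraries, and the 196 rows over 99 to 100 averaged 5.21.

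**Figure D4:**
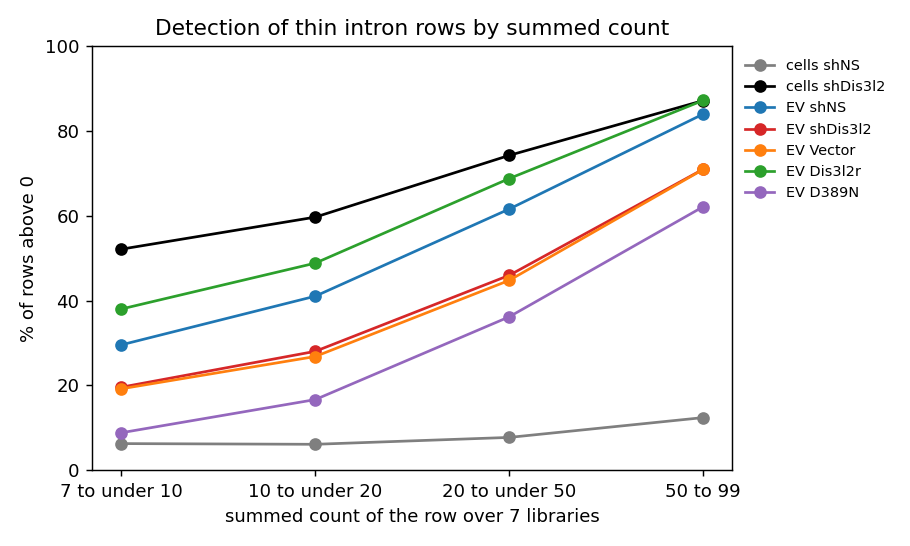
Percentage of thin intron rows above 0 (vertical axis) in each of 4 windows of the summed count over 7 libraries (horizontal axis), 1 line per library. The lines of the other libraries climb, for shNS EVs from 29.5% to 83.9%, while shNS cells go from 6.28% to 12.4%.

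The overlap of detected members between libraries lay close to what each library's own detection rate gives. The rule bounds the sum over these same libraries, which shapes both the overlap and the rate. Their closeness is therefore a description of the window. Over the 42 ordered pairs, the median share of a library's detected members that were also above 0 in the other was 46.1% (range 7.45% to 73.9%). The share differed from the other library's rate over all members by -2.37 to 7.27 percentage points and was above it in 38 of 42 ordered pairs. For example, 67.0% of members detected in shNS cells were also above 0 in shDis3l2 cells, where 68.3% of all members were. Of members detected in shNS EVs, 73.3% were above 0 in shDis3l2 cells. The 4 ordered pairs below the other library's rate were shNS cells with shDis3l2 cells and with Dis3l2r EVs, each in both directions. Above or below is the same in both directions of a pair, so the 42 stand for 21 pairs of libraries.

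With each library thinned to the same member counts, the median overlap was 22.0%. For introns with sums over 99, as deposited, it was 94.4%, in a range of 35.1% to 97.4%. Without the shNS cell library the members' overlap was 31.1% to 73.9% (median 51.8%) over 30 ordered pairs, and that of introns over 99 was 90.6% to 97.4%. Across member rows, which are not independent and whose sum is bounded by the rule, Pearson's r between libraries ran from -0.030 to 0.184, against 0.172 to 0.624 across introns over 99. Without the shNS cell library the lowest value for members was 0.029, and the range for introns over 99 was the same. These values are descriptions.

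**Figure D5:**
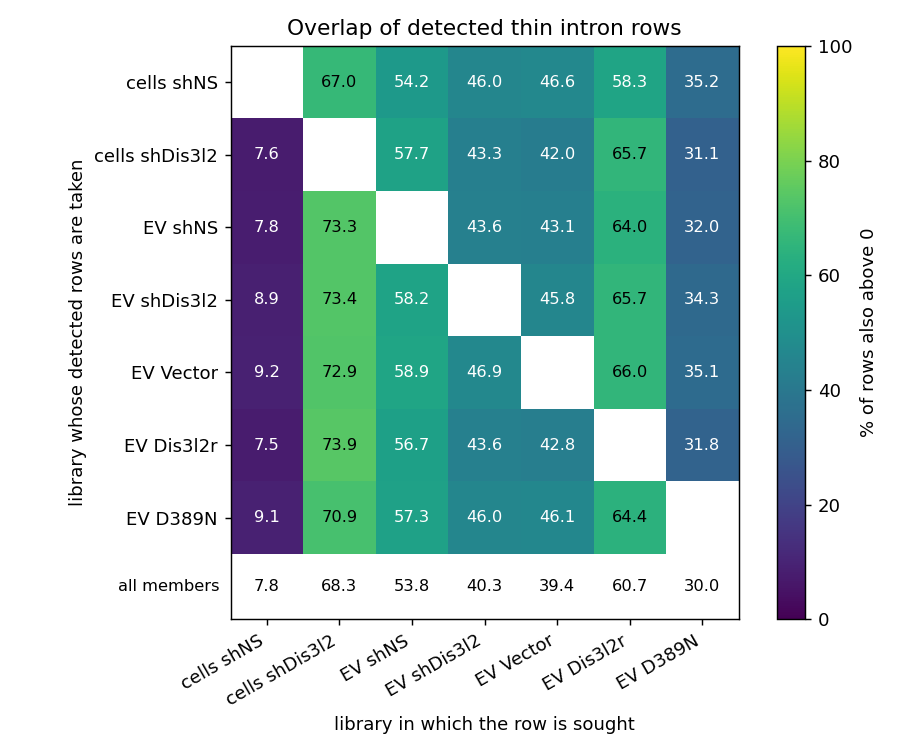
Percentage of the thin intron rows detected in the library of each line that were also above 0 in the library of each column, with the detection rate over all members in the bottom line. Columns look alike from line to line, for instance 67.0% to 73.9% in the shDis3l2 cell column against 68.3% of all members.

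Members came from many host transcripts, most with few of them. They lay in 30576 of 48226 transcripts with intron rows (63.4%), and 14026 hosts (45.9%) had 1 member. The 2054 hosts with at least 10 members held 30426 of them (30.3%), and the most in 1 host was 85 of its 187 introns. A further intron with a sum over 99 was present in 10407 hosts (34.0%). Of 21701 hosts with exon rows, 72.8% had an exon count, against 37.6% of 8861 transcripts with introns but no member. Hosts with thin introns thus more often had exon counts. The depth at which a transcript was read was not held equal, and no test was made.

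The same held within each library. The percentages here are over hosts with exon rows, which are 5025 of the 5610 detected hosts in shNS cells and 17334 of 23122 in Dis3l2r EVs. In shNS cells 37.2% of such hosts whose members were above 0 had an exon count there, against 10.4% of the others. In Dis3l2r EVs the values were 52.4% and 25.2%. D389N EVs had the lowest such value, 35.3% against 19.9%. Host transcripts detected ran from 5610 in shNS cells to 24072 in shDis3l2 cells. Without shNS cells the lowest number was 16075, in D389N EVs.

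By intron number, the share of introns that were members differed little. In transcripts with gapless numbering and at least 3 introns, members made up 43.0% of introns numbered 0, 44.7% of those between and 43.2% of those with the highest number. Members numbered 0 had a higher median sum, 28 against 20 in both other positions, and were above 0 more often in each library. In Vector EVs, for example, 47.2% of them were above 0, against 39.2% and 37.2%. The shares of introns over 99 were 26.4%, 9.08% and 8.29% in the same order. No test was made. Whether numbers run from the start of the transcript is not given in the sources used here.

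Some rows cannot be told apart. Of the members, 30936 (30.8%) had the same 7 values as another member, compared to 3 decimals. Of these 30936 rows, 27221 were above 0 in 1 or 2 libraries and 133 in at least 4. Over all members there were 73771 distinct sets of 7 values. Introns that isoforms of a gene share would appear as separate rows, and the table does not show which do. Counted once, identical rows left the span of summed shares at 52.5-fold.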

How the data were processed

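RNA of 5 EV and 2 whole-cell groups of RAW264.7, 1 library each, was sequenced. The authors deposited 1 table of estimated counts, unscaled between libraries. The submitters' processing notes name Salmon, Novoalign, UMI-tools and cutadapt, and the mouse builds mm10 and GRCm38. Tool versions, their order and any deduplication were not stated in the sources used here. Of values above 0, 64.1% were exactly whole.

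Members and lists were chosen with earlier results of these data known. Lists by gene symbol and marker checks had no result, because no ID was matched to a name. Shares are of whole-RNA totals, with exact (Clopper-Pearson) 95% intervals. Counts were rounded for intervals and fits. Each single-library pair was scaled by whole-RNA totals, and an exact conditional binomial interval was used. Fits over the whole table used edgeR 4.0.16 (quasi-likelihood, filterByExpr, Benjamini-Hochberg threshold 0.05), with 4 residual degrees of freedom for compartment (whole-RNA totals, Dis3l2 class as covariate) and 3 for class (TMM). DESeq2 1.42.0 was an alternative. Libraries of a class are different genotypes, not replicates. Scripts were tested on simulated data (R 4.3.3, Python 3.11.15, scipy 1.17.1). Named rows are those with the smallest adjusted p each way in a fit, the most counts in 1 library or in EVs or cells alone, and the highest minimum. At most 2 IDs each way are printed. Alternatives were other totals, TMM, a 20 to 99 window, a minimum of 40 counts, equal member counts, identical rows once, and each library left out. Spans and overlaps without the shNS cell library, overlap at equal member counts and a fit with the line as block were added after seeing the data.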

Additional observations from a re-analysis of the deposited data

Results flagged for a closer look

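As a share of whole-RNA totals, the knockdown went in opposite directions in the cells and in their EVs. The log2 ratio of the summed share of thin introns, shDis3l2 against shNS, was 4.29 in cells and -0.36 in EVs. The ratio of the number of rows above 0 was 8.81 in cells and 0.749 in EVs. The opposition depends on the divisor: as a ratio to exon rows the log2 values were -0.26 in cells and -0.30 in EVs, both lower. Each side is 1 library against 1 library, so the difference was not tested. The cell side rests on the shNS cell library, which had 27300 exon counts against 275220 to 555760 in the other libraries.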

How the results depend on the processing

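With each library at 31081 member counts, rows above 0 were 22314 in shDis3l2 cells and 21323, 19253, 18970, 21955 and 16689 in shNS, shDis3l2, Vector, Dis3l2r and D389N EVs, and the median overlap was 22.0% in place of 46.1%. With a window of 20 to 99 they were 4845 in shNS cells, 41246 in shDis3l2 cells and 39268 in Dis3l2r EVs. The span of summed shares, 53.4-fold, was 56.8-fold over all rows, 15.1 over intron rows and 2.07 over exon rows. It was 64.4 in the 20 to 99 window and 52.5 with identical rows once. Without shNS cells the span was 3.18-fold on whole-RNA totals, 3.07 over all rows, 2.49 over intron rows and 2.07 over exon rows.

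With a minimum of 40 counts, members higher and lower in the shNS pair, EV against cell, were 690 (95.8%) and 17 (2.36%). All rows compared stood at 94.0% and 4.52%. In the shDis3l2 pair the members were 599 (35.9%) and 493 (29.6%), with all rows at 40.3% and 22.4%. Knockdown gave 424 (90.6%) and 19 (4.06%) in cells, with all rows at 87.3% and 3.4%. In EVs it gave 443 (20.2%) and 948 (43.3%), with all rows at 15.8% and 25.0%. Dis3l2r had 1364 (61.0%) and 272 (12.2%), with all rows at 55.0% and 7.48%. D389N had 1251 (58.2%) and 323 (15.0%), with all rows at 35.3% and 15.6%. With TMM, the shNS EV pair had 287 and 392, knockdown cells 203 lower (4.05%, against 10.1% of all rows) and Dis3l2r 3456 lower (22.7%, against 26.2%). With intron totals the shNS pair had 127 lower (1.59%, against 3.31% of all rows) and the shDis3l2 EV pair 2944 and 4762. These counts fall with fewer rows tested or shift with the scaling. As in the main setting, a row without counts in a library could not come out higher in it.

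For EVs against cells, edgeR called 0 members. DESeq2 called 536 higher (1.71%, against 12.6% of all rows tested) and 2 lower (0.00638%, against 0.951%). With TMM edgeR called 28 lower (0.0893%, against 1.09%), and with DESeq2 size factors 31 lower (0.0988%, against 1.16%). Leaving out 1 library each gave 0 to 28 higher and 0 to 9 lower. For Dis3l2 class DESeq2 called 3 higher, edgeR without the filter 8 lower, and leaving out 1 library 0 to 11 lower (11 without shNS EVs, 1 without Dis3l2r). For class, DESeq2 called 0.18% of all rows tested higher, against 0.0128% of members. Without the filter edgeR called 0.0758% of all rows lower, against 0.0091% of members. The rule keeps sums low for members and not for all rows, so lower shares called among members are not read as a trait. The cause was not tested. The difference in share between EVs and cells ran from 0.804 to 2.36 points with 1 library left out, and by Dis3l2 class from -2.73 to -0.735. With the line as a replicate block, which pairs the EV and cell libraries of shNS and of shDis3l2 and leaves 1 residual degree of freedom, edgeR called 0 members in either direction, with 0 at an unadjusted p under 0.05, against 0.224% of all rows higher and 0.296% lower. No other pairing was possible. Depth limits single rows: a 0 allows up to 3 counts.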
